A study of Mus musculus with 15 samples.

Results

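A set of 9 genes of DNA repair and nucleotide supply, Ercc5, Xpc, Ddb2, Mgmt, Polk, Rev3l, Fancc, Trp53bp1 and Rrm2b, were followed through p53 ChIP-seq (sequencing of the DNA pulled down with a protein) of 3 mouse organs. They were chosen by name, as repair genes linked to p53, and make up 9 of the 21887 protein-coding genes annotated by RefSeq on GRCm38.p6 (mm10). A region counted for a gene when it overlapped the gene or lay no more than 20 kb from it. The 15 libraries came from wild-type mice: liver, spleen and thymus each had 2 libraries taken 3 h after 2 Gy of X-rays, 2 from untreated animals, and 1 input library of chromatin that had no antibody step. The authors deposited 1 list of regions per organ, and the labels give that list to all 5 libraries of the organ. Untreated and irradiated animals therefore could not be compared, no value has a replicate error, and differences between organs carry no test.

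Regions carry the authors' own score on a scale the labels do not state, so each is described by its percentile: the share of regions in its own organ list that scored no higher, with ties averaged. The lists held 3872 regions (liver), 2604 (spleen) and 2405 (thymus), and together 4137 distinct regions, with a median width of 150 bp. Library depth is unknown, so a longer list cannot be told apart from deeper libraries. Chromatin of whole organs averages over all their cell types, and the cells a region came from cannot be told apart. Gene starts, ends and listed promoter windows were available, but exons and introns were not told apart.

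p53 is a transcription factor that is stabilised when DNA breaks, binds DNA at a repeated ten-letter element, and switches on genes that halt the cell cycle, kill the cell or help it repair. Damage to single bases and bulky lesions is removed by direct reversal and by nucleotide excision repair, lesions that stall replication are bypassed by translesion polymerases, crosslinks are unhooked by the Fanconi anaemia pathway, and strand breaks are sensed by chromatin-bound scaffolds. Liver is a mostly non-dividing organ, while thymus and spleen are rich in lymphocytes that die readily after irradiation.

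A region lay within 20 kb of 7 of the 9 genes in at least 1 list, against 23.0% of all coding genes. The liver list had one for 6 of the 9 (Ercc5, Xpc, Mgmt, Polk, Rev3l and Fancc), where 22.3% of coding genes had one. The spleen list had one for 5 (Ercc5, Xpc, Mgmt, Polk and Trp53bp1), against 12.8% of coding genes. The thymus list had one for 4 (Ercc5, Xpc, Mgmt and Trp53bp1), against 11.6% of coding genes. Ercc5, Xpc and Mgmt had a region in all 3 lists, which held for 9.18% of coding genes, and Ddb2 and Rrm2b had none in any list. The genes are long, at 25588 to 233731 bp with a median of 61893 bp, against a median of 17169 bp for coding genes. Among the 7692 coding genes in that length range the shares were higher, with 27.6% for the liver list, 17.1% for the spleen list and 15.4% for the thymus list. The 9 genes were chosen with earlier results of these data known, so these counts are a description. In lists of equal length, 2405 regions each, Ercc5 and Fancc had no liver region, and Xpc and Mgmt were left with a region in all 3.

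**Figure D1:**
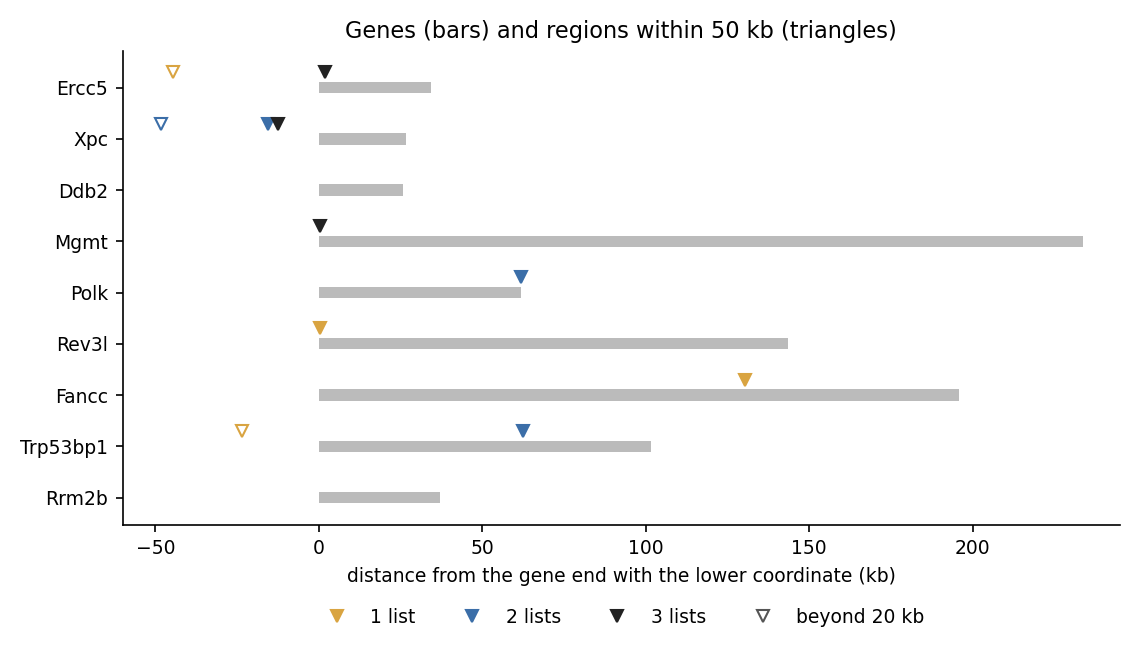
Bars show the 9 repair genes to scale from the gene end with the lower coordinate (x axis, kb), and triangles show the midpoints of regions within 50 kb, coloured by the number of organ lists that hold them; open triangles lie beyond 20 kb. Ercc5, Mgmt and Rev3l have a region near the lower end of the gene and Polk one at its upper end, those of Fancc and Trp53bp1 lie deep inside the gene, and those of Xpc lie outside it.

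Within the 20 kb rule there were 8 distinct regions. A region overlapped the gene itself in at least 1 list for 6 genes, against 11.2% of all coding genes, and Xpc was reached only from outside. Such an overlap was listed for 5 of the 9 genes in liver (10.8% of coding genes), 4 in spleen (5.91%) and 3 in thymus (5.29%). Of the 8 regions, 3 were in all 3 lists, 2 in liver and spleen, 2 in liver alone and 1 in spleen and thymus. Over the 4137 distinct regions, the shares of these patterns were 46.7% for all 3 lists, 10.6% for the liver and spleen pair, 30.3% for liver alone and 4.76% for the spleen and thymus pair.

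A pair of the regions inside the genes, those of Polk and Fancc, overlapped a listed promoter window, and another, near Xpc, overlapped the windows of its neighbours Chchd4 and Tmem43. The Polk region also overlapped the window of Cert1. The Polk and Fancc regions reached the listed start of those genes. The region near Xpc reached the listed start of Tmem43 and lay 178 bp from Chchd4. For each region 1 stretch is shown, from a promoter window that the region overlapped. Each is the 250 bases upstream of the start, from RefSeq (GRCm38.p6), 5′ to 3′ on the strand of the gene, and capitals mark the bases inside the deposited region.
Polk, chr13:96542580-96542829, minus strand: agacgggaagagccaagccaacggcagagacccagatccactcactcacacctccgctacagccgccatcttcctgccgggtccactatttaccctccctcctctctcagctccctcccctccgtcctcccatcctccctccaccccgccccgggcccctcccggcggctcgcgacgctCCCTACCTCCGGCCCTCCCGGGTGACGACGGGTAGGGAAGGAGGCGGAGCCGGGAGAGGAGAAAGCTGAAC
Fancc, chr13:63431746-63431995, minus strand: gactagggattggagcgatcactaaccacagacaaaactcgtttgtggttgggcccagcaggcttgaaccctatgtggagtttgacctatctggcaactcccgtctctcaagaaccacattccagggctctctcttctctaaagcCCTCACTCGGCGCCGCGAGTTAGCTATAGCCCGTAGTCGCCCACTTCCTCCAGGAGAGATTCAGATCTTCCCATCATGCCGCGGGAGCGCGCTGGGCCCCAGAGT
Chchd4, chr6:91473424-91473673, minus strand: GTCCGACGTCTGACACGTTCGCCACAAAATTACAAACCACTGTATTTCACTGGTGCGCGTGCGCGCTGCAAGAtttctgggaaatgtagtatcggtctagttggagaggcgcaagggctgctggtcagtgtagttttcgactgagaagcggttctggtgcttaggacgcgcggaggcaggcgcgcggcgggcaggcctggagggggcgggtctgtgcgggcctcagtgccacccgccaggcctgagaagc
The region covered 71 bases of the Polk stretch and 105 of the Fancc stretch, at the end next to the start in each, and 73 bases of the Chchd4 stretch at its far end, toward Tmem43. The 3 stretches held 19, 13 and 22 CG dinucleotides.

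The promoter windows (250 bases before to 50 after a listed start) were searched for exact copies of the p53 decamer consensus, the unit that is repeated in a full response element; it reads the same on both strands. None of the windows of Polk and Fancc that a region overlapped, nor those of Cert1, Chchd4 and Tmem43, held a copy. Region sequence outside the listed windows was not searched. The regions of Ercc5, Mgmt, Rev3l and Trp53bp1, and the Xpc region inside Tmem43, overlapped no listed window. Whether these regions hold a copy was therefore not examined. Of the 7 listed windows of the 9 genes, 1 held a copy: a window of Polk at an internal start, chr13:96519138-96519437, where no region was listed. A copy was present in 7.2% of the 1722 windows that a region of any list touched and in 8.36% of all 32851 windows. The windows touched by a region had a median of 29 CG dinucleotides, against 7 over all windows; the 300-base windows at the Polk and Fancc regions had 25 and 23.

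Nucleotide excision repair was represented by Ercc5, Xpc and Ddb2. Ercc5 encodes XPG, the endonuclease that cuts on the 3′ side of a bulky lesion. Its only region within 20 kb, chr1:44148601-44148950 (350 bp), lay inside the gene, with its midpoint 1031 bp downstream of the listed start. It was in all 3 lists, with percentiles of 26.9 (liver), 68.3 (spleen) and 89.9 (thymus). The same stretch of DNA thus stood in the lower part of the liver list and near the top of the thymus list. The liver minus thymus difference was -63.0 points, and 4.08% of the 2179 regions shared by those lists had a difference as low or lower. The liver minus spleen difference was -41.5 points, and 13.8% of 2368 shared regions were as low or lower. Spleen minus thymus was -21.6 points, with 16.5% of 2127 shared regions as low or lower. Bivm, the neighbouring coding gene, ended 3830 bp from the region.

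**Figure D2:**
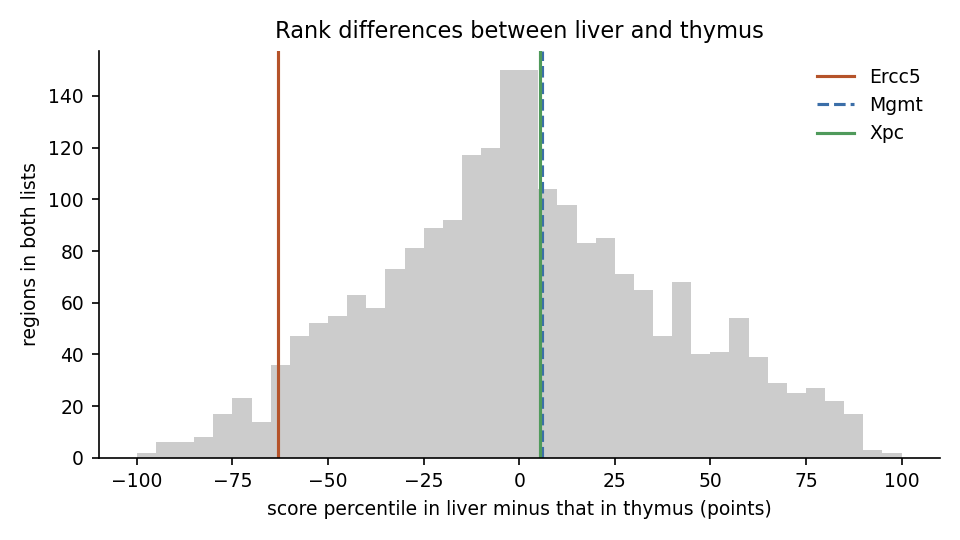
Grey bars count the 2179 regions held by both the liver and the thymus list, by score percentile in liver minus that in thymus (points, x axis), in bins of 5 points. Vertical lines mark Ercc5 at -63.0, Mgmt at 6.02 and the 12355 bp region of Xpc at 5.55; Ercc5 stands in the lower tail and the other lines near the centre.

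Xpc encodes the sensor that finds helix-distorting damage in the genome at large. No listed region lay inside it. One region of 350 bp, chr6:91476601-91476950, lay 12355 bp outside the gene and had the highest percentiles of all 8 regions: 95.9 (liver), 81.5 (spleen) and 90.4 (thymus). The region was inside the neighbouring gene Tmem43, which encodes a nuclear envelope protein, 3068 bp from its lower end. A further region, chr6:91473601-91473750 (150 bp), lay 15555 bp outside Xpc, between the facing ends of Tmem43 and Chchd4, a gene for a mitochondrial import protein. It overlapped the end of Tmem43, lay 178 bp from Chchd4, and was at percentile 45.4 in liver and 22.6 in spleen and not in the thymus list. Both regions were thus closer to other coding genes than to Xpc, and these data do not tell which gene they belong to.

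Ddb2 encodes the subunit of the UV-damage sensor that hands lesions to XPC. It is a well-known p53 target in human cells, whereas the mouse gene has been described as not induced by p53. The nearest region in the liver and thymus lists lay 61095 bp away, inside Madd, at chr2:91150401-91150450, with percentiles of 47.4 and 28.2. The nearest spleen region lay 465895 bp away, at chr2:90745301-90745650 in Fnbp4 (percentile 18.8). In comparison, 63.5% of coding genes were farther than Ddb2 from any liver region, 31.0% from any spleen region and 78.3% from any thymus region.

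Direct reversal was represented by Mgmt, the methyltransferase that lifts alkyl groups off guanine in a single step. A 350 bp region, chr7:136894701-136895050, began 66 bp past the end of its promoter window, with the midpoint 289 bp downstream of the listed start, and it was the only one in 20 kb. Its percentiles were 70.5 (liver), 71.9 (spleen) and 64.5 (thymus). The widest gap between organs was 7.4 points, spleen minus thymus, so Mgmt held nearly the same place in each list. Liver minus spleen was -1.38 points and liver minus thymus 6.02 points. No other coding gene lay within 5 kb.

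Translesion synthesis was represented by Polk and Rev3l. Polk encodes polymerase kappa, which copies past bulky adducts at guanine. Its region, chr13:96542201-96542650 (450 bp), was the widest of the 8; 95.3% of distinct regions were no wider. It spanned the gene end that holds the listed start, with the midpoint 154 bp inside, and lay 59 bp from Cert1, a ceramide transporter gene, so it could belong to either. Its percentile was 50.7 in liver and 21.5 in spleen. It was not in the thymus list, where the nearest region to Polk was 546137 bp away.

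Rev3l encodes the catalytic subunit of polymerase zeta, which extends DNA past lesions. A 50 bp region, chr10:39732001-39732050, lay with its midpoint 464 bp inside the gene end with the lower coordinate and overlapped the long noncoding RNA gene E130307A14Rik. It was in the liver list alone, at percentile 40.3. In the spleen and thymus lists the nearest region was 274811 bp away, at chr10:39456001-39456750 in Fyn, with percentiles of 92.4 and 97.4.

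Fancc encodes a subunit of the Fanconi anaemia core complex, which starts crosslink repair. Its single region, chr13:63431601-63431850 (250 bp), lay at 66.5% of the length of the gene from its lower end, 65567 bp inside the upper end, and over a listed internal start, with the midpoint 20 bp downstream of it. It was in the liver list alone and had the lowest percentile of any of the 8 regions, 4.16. The nearest region in spleen and thymus was 810909 bp away, in Prxl2c, farther than for any other of the 9 genes.

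Trp53bp1 encodes a p53-binding chromatin scaffold that gathers at double-strand breaks and steers them to end joining. Its region, chr2:121257401-121257450 (50 bp), lay inside the gene, 13982 bp downstream of the listed start. It was the only one of the 8 that the liver list did not hold, and its percentiles were 35.3 in spleen and 33.2 in thymus. The pattern of spleen and thymus without liver within 20 kb held for 0.471% of all coding genes. It depended on the window: the nearest liver region was 23585 bp outside the gene, at the Zscan29 and Tubgcp4 ends (chr2:121171101-121171250, percentile 63.8), just beyond the 20 kb rule.

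Rrm2b encodes the p53-inducible small subunit of ribonucleotide reductase, which supplies deoxynucleotides for repair in resting cells. Its nearest region was the same in all 3 lists, chr15:37403401-37403650 in Ncald, 520302 bp away, at percentiles of 81.4 (liver), 92.7 (spleen) and 68.4 (thymus). Only 20.2% of coding genes were farther from any liver region, 28.4% from any spleen region and 30.2% from any thymus region. A gene without a listed region is not thereby shown to be unbound, since the lists hold only regions above the authors' threshold.

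**Figure D3:**
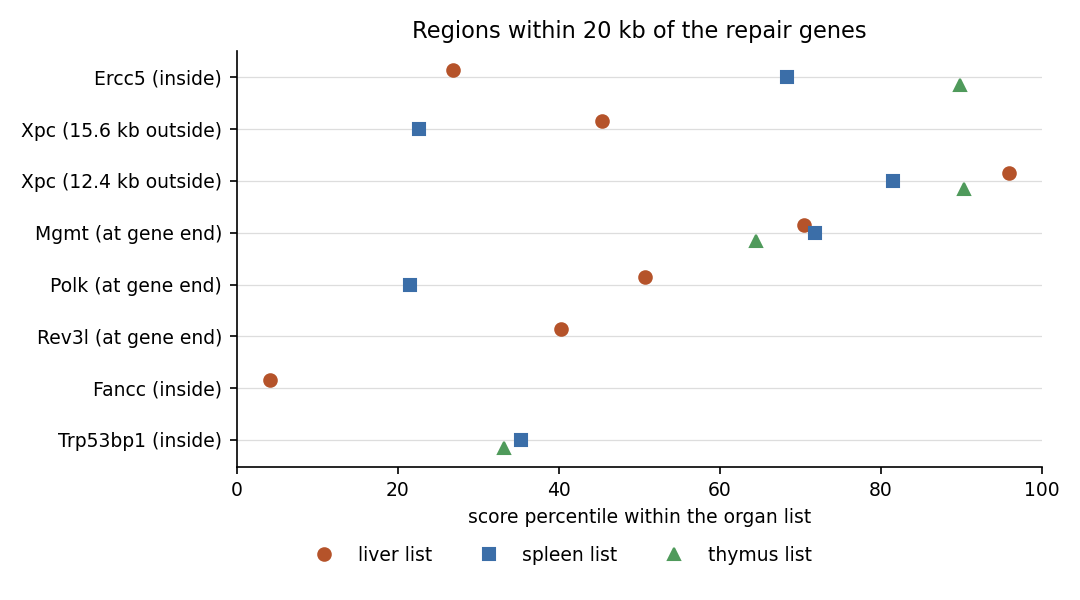
Score percentile within each organ list (x axis) for the 8 regions within 20 kb of the repair genes, 1 row per region, with circles for liver, squares for spleen and triangles for thymus; a missing symbol means that the list does not hold the region. The Mgmt symbols lie close together at 64.5 to 71.9, whereas those of Ercc5 run between 26.9 and 89.9.

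Across the 8 regions, percentiles ran between 4.16 and 95.9 in liver (7 regions, median 45.4), between 21.5 and 81.5 in spleen (6 regions, median 51.8) and between 33.2 and 90.4 in thymus (4 regions, median 77.2). In each list 3 of these regions stood above the 50th percentile. In liver they were at Xpc, Mgmt and Polk, and in spleen and thymus at Xpc, Mgmt and Ercc5. The 3 regions held by all lists were each 350 bp wide, a width that 90.0% of distinct regions did not exceed. The regions of Rev3l and Trp53bp1 had a width of 50 bp, which 1088 distinct regions shared. Just inside the 20 kb rule was the Xpc region at 15555 bp and just outside it the liver region at 23585 bp from Trp53bp1; next came a liver region 44398 bp from Ercc5 at Tex30 (percentile 71.0) and one 48355 bp from Xpc in liver and thymus (6.69 and 3.89).

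A wider list of 105 other repair genes was set beside the 9, chosen by their role. A region within 20 kb was listed for 41 of them (39.0%) in the liver list, 22 (21.0%) in the spleen list and 17 (16.2%) in the thymus list, against 22.3%, 12.8% and 11.6% of all coding genes. The shares of the 9 genes were 66.7%, 55.6% and 44.4%. The 105 genes were not matched to coding genes by length, here or in later counts. Coding genes in the length range of the 9 had higher shares, 27.6% (liver), 17.1% (spleen) and 15.4% (thymus). With each list shortened to its 2405 highest-scoring regions, the length of the thymus list, the liver count of the other repair genes was 25. The share over all coding genes was then 15.3% for liver. The spleen and thymus counts were 17 and 17, where 11.3% and 11.6% of coding genes had a region. By pathway, liver regions were listed for 5 of 7 other translesion genes, 9 of 14 crosslink repair genes, 4 of 6 mismatch repair genes and 4 of 5 nucleotide pool genes. Base excision repair had 2 of 17, end joining 2 of 10, excision repair 7 of 21 and break signalling and recombination 7 of 23. In spleen the counts were 3 translesion, 5 crosslink, 3 mismatch, 2 nucleotide pool, 0 base excision, 2 end joining, 5 excision repair and 1 break signalling genes.

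**Figure D4:**
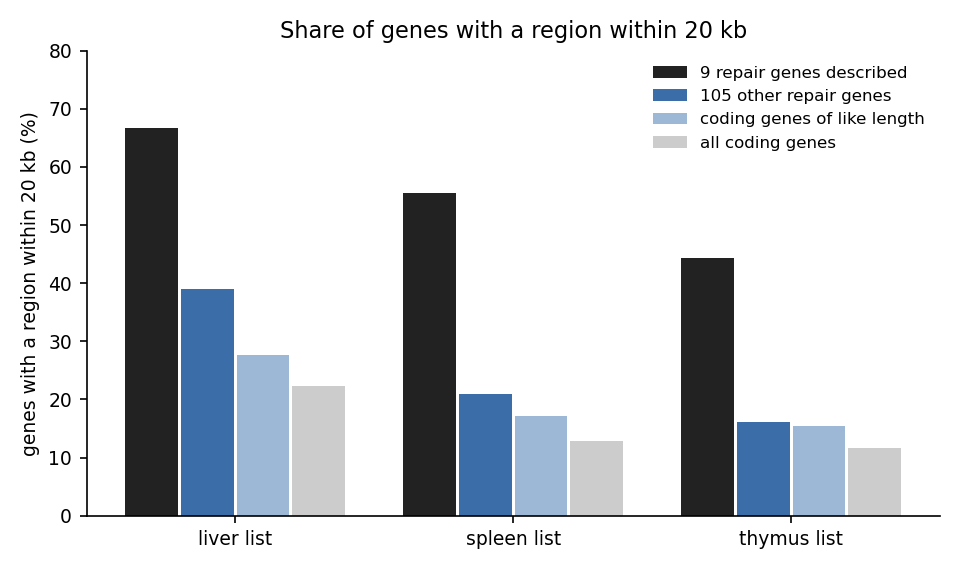
Percentage of genes with a region within 20 kb (y axis) in each organ list, for the 9 repair genes, the 105 other repair genes, the 7692 coding genes in the length range of the 9, and all 21887 coding genes. The bars of the 9 genes are at 66.7% (liver), 55.6% (spleen) and 44.4% (thymus), and those of all coding genes at 22.3%, 12.8% and 11.6%.

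Of the other repair genes, 15 had regions in all 3 lists, against 9.18% of coding genes. The highest mean percentile was at a region 17535 bp from Fan1, a crosslink repair nuclease gene, with the top score of the liver list and percentiles of 96.1 (spleen) and 97.0 (thymus); the region (chr7:64327001-64327850) lay within 5 kb of Mtmr10 and not of Fan1. A second region, inside Fan1 and close to its end, was at 32.5 in liver and 17.2 in spleen and not in the thymus list. Rrm1, the large subunit of ribonucleotide reductase, had 2 regions in all 3 lists. The one 9530 bp outside the gene, near olfactory receptor genes, was at 95.5 (liver), 69.1 (spleen) and 75.3 (thymus). The one inside the gene was at 12.1 (liver), 90.0 (spleen) and 49.0 (thymus), lowest where the other was highest. Polh, the polymerase that copies past UV lesions, had one at its end, shared with Xpo5 (chr17:46202501-46202950), at 99.2, 65.6 and 56.3. Like Polk, Polh thus ranked higher in liver than in spleen.

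Fancl, the ubiquitin ligase of the Fanconi pathway, had a region 11334 bp outside the gene at 56.1 (liver), 86.1 (spleen) and 65.7 (thymus), and a further one at its end in the liver list alone (51.2). Alkbh3, which reverses alkylation like Mgmt, had one 2877 bp outside at 38.2, 50.8 and 54.7. Gtf2h4, a subunit of the TFIIH complex, had one at a gene end at 92.8, 74.0 and 7.9. In contrast, the regions inside Brip1 (7.45, 56.0 and 91.6), a helicase gene of the Fanconi pathway, Rad18 (16.8, 39.4 and 86.3), a ubiquitin ligase gene of lesion bypass, were low in liver and high in thymus, the order seen at Ercc5. Nhej1, an end joining factor gene, had 5 regions. The one in all 3 lists had that order too, at 13.3 (liver), 53.9 (spleen) and 72.7 (thymus). The others were in liver alone, at 70.4, 88.9 and 8.14, or in liver and thymus, at 32.9 and 30.7.

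Where a region lay and how it ranked went together around repair genes, a split made after the ranks were seen. Regions were classed as at a gene end when the midpoint was no more than 1 kb from an end of some annotated gene of any kind, which held for 47.6% of liver, 25.5% of spleen and 23.6% of thymus regions. Within 20 kb of the 114 repair genes there were 63 distinct regions, 43 of them at gene ends. Over all distinct regions the share at gene ends ran from 7.11% (spleen and thymus pair) to 80.9% (liver alone), with 19.0% for all 3 lists. Regions near repair genes were picked for lying close to a gene, so the count of 43 is not a trait of repair genes. Among those held by both liver and spleen, 16 of 17 at gene ends had the higher percentile in liver, against 3 of 13 away from them. For liver and thymus it was 9 of 10 at gene ends and 3 of 13 away from them. The same direction held over all shared regions, less steeply in share: 78.3% at gene ends and 40.8% away from them for liver and spleen, and 71.4% and 41.6% for liver and thymus. The median difference near repair genes was 29.2 points at gene ends and -29.9 points away from them for liver minus spleen, against 28.3 and -7.93 points over all shared regions. For liver minus thymus it was 50.1 and -27.8 points near repair genes, against 21.9 and -5.86 points over all shared regions.

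Among the 9 genes the classes were mixed. Of the regions at gene ends, Polk differed by 29.2 points between liver and spleen and the Tmem43 end region near Xpc by 22.8 points, whereas Mgmt differed by -1.38 points. Away from gene ends, Ercc5 differed by -41.5 points and the Xpc region inside Tmem43 by 14.4 points. The Ercc5 midpoint was 1827 bp from the nearer end of the gene and 1031 bp from its listed start, so it fell just outside the class. Whether the gap in median difference between regions near repair genes and all shared regions exceeds the error of the lists was not tested.

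**Figure D5:**
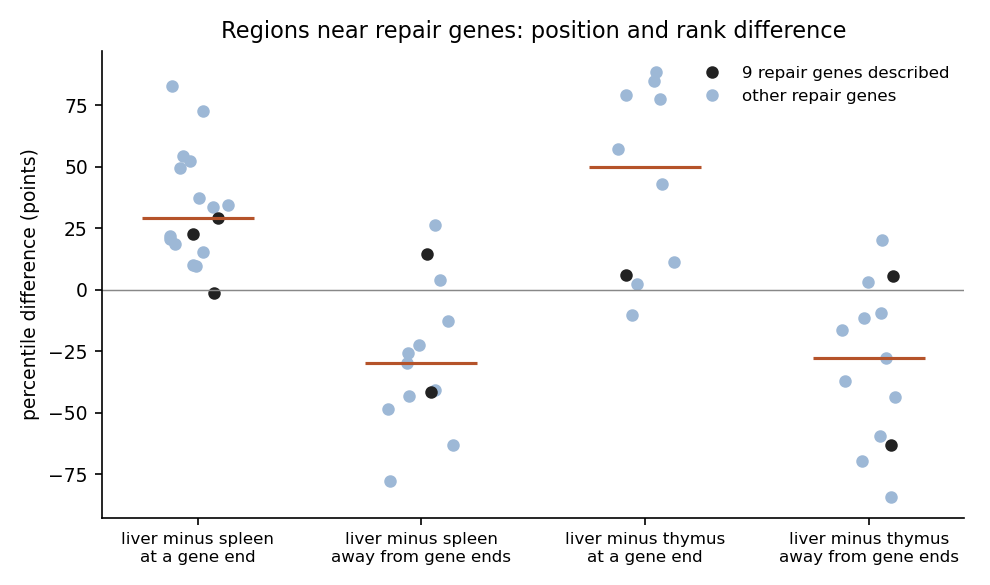
Score percentile in liver minus that in spleen or thymus (points, y axis) for shared regions within 20 kb of 114 repair genes, split by whether the midpoint lies within 1 kb of a gene end; black points are regions of the 9 genes described, light points those of other repair genes, and horizontal lines are medians. Points at gene ends lie mostly above 0 and points away from gene ends mostly below it.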

How the data were processed

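The authors deposited 1 headerless list of regions per organ, with a score in the fifth column. The labels name no region caller, aligner or settings. The build, mm10, comes from the submitters' processing notes. The list names refer to irradiation and to IgG, though no library is labelled IgG. Scores were used only as ranks within a list. The distance of a region to a gene is the gap between their edges, and 0 where they overlap. Gene limits came from RefSeq (GRCm38.p6), promoter windows from a RefSeq table of the same build that holds 7 windows of 5 of the 9 genes. All 9 genes matched by symbol; of 105 other repair genes 104 matched by symbol and 1 by a synonym. Named beside the 9 genes were coding genes within 5 kb of a region and at most 10 other repair genes with 1 region in all 3 lists, by mean percentile; 1 of these is not reported here. Members and lists were chosen with earlier results of these data known. No test was run, since each organ has 1 list. Distances, counts and ranks were checked on artificial intervals with known answers. Python 3.11.15, pandas 2.3.3, NumPy 2.4.6 and SciPy 1.17.1 were used.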

Additional observations from a re-analysis of the deposited data

How the results depend on the processing

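With windows of 5 and 10 kb the liver, spleen and thymus lists reached 5, 4 and 3 of the 9 genes, since the Xpc regions drop out; the shares over all coding genes were 15.2%, 8.11% and 7.17% at 5 kb and 17.8%, 9.77% and 8.73% at 10 kb. With 50 kb they reached 7, 5 and 4, against 33.4%, 20.9% and 19.2% of coding genes. Distances from region midpoints gave 6, 5 and 4, against 22.3%, 12.8% and 11.5%. Among regions above the 50th score percentile of their list, 3 of the 9 genes were left in each list, with 4 distinct regions, and the other repair genes fell to 20 (liver), 10 (spleen) and 9 (thymus), where 12.7%, 5.81% and 5.23% of coding genes had such a region. With lists shortened to 2405 regions, the 9 genes had 4, 5 and 4 and the other repair genes 25 in liver, against 15.3%, 11.3% and 11.6% of coding genes; the liver regions of Ercc5 and Fancc drop out there. With a 50 kb window 36 of the other repair genes had a spleen region and 28 a thymus region, against the 20.9% and 19.2% above. Ranking tied scores lowest left all 17 percentiles within their 95% binomial intervals. These intervals were only a yardstick for the size of a shift, since a rank in a complete list has no sampling error. Ranked among the 1930 regions of all 3 lists, 8 of 9 percentiles moved beyond theirs, each downward. That ranking leaves out the regions held by fewer lists, so its percentiles are not on the same footing as the others. Ercc5 remained low in liver (26.3) and high in thymus (87.9). Depth is unknown. No paired analysis was possible because the deposited lists carry no replicate numbers and no result comes from a test.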

Other observations

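Other repair genes with a region in the liver list alone within 20 kb numbered 17 of 105 (16.2%), against 8.28% of all coding genes, and for 14 of the 17 the best-ranked region lay at a gene end, as did 80.9% of all regions in the liver list alone. Named here after their values were seen, they included Rev1, the scaffold polymerase of lesion bypass (percentile 91.5), Mlh3, a mismatch repair gene (85.6, also near Acyp1 and Zc2hc1c), Fancd2, the ubiquitinated hub of the Fanconi pathway (79.7, 7581 bp outside it and next to Brk1), and Xrcc2, a recombination gene (69.1). Atm, the kinase that activates p53 after strand breaks, had one at its end shared with Npat (36.2). Rrm2, the cycling counterpart of Rrm2b, had one 4 bp outside the gene at percentile 6.93. Like Rev3l and Fancc, these genes had no spleen or thymus region within 20 kb.

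None of the 105 other repair genes had regions in spleen and thymus without liver, the pattern of Trp53bp1. That pattern held for only 0.471% of coding genes, so its absence here is near that share. Liver and spleen regions without thymus, the pattern of Polk, were listed for 7 (6.67%), against 3.01% of coding genes. For each of the 7 the region held by both lists lay at a gene end, as did 63.9% of all regions in liver and spleen without thymus. These regions, like those in the liver list alone, were picked for lying close to a gene. Neither gene-end count is therefore a trait of repair genes. Among the 7 were Rad23b (89.0 in liver and 36.6 in spleen), a partner of XPC, and Ercc4 (30.2 and 9.6), the nuclease gene that acts opposite Ercc5.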
